A study of Homo sapiens with 16 samples.

Results

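Argonaute 2 (Ago2) binding to 8 classical target genes of the let-7 microRNA was examined in 293S cells treated with hippuristanol and in untreated 293S cells. The genes were LIN28B, TRIM71, HMGA1, HMGA2, IGF2BP1, IGF2BP2, IGF2BP3 and ARID3B, chosen by name because they are well-known let-7 targets, and their peaks are all entries of the authors' peak table that carry one of these names. Of the 8 genes, 4 had a peak, with 14 peaks among them, out of 4718 distinct peaks in 2213 genes. HMGA1, IGF2BP2, IGF2BP3 and ARID3B were without a peak, and no peak was listed under a RefSeq accession of a member with another gene name.

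Treated cells were given 1 µM hippuristanol, an inhibitor of the RNA helicase eIF4A and so of translation initiation, for 30 min, and the others were left untreated. 293S is an established human embryonic kidney line derived from HEK293, and all cultures were of this line. The labels give 2 hippuristanol-treated and 2 untreated cultures, with 1 aliquot of each used for RNA-seq and 3 for Ago2 CLIP with antibodies of 3 manufacturers, hence 6 CLIP libraries per treatment. In CLIP, a protein is crosslinked to RNA and precipitated, and the RNA bound to it is sequenced.

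For each peak the table gives 1 log average over the libraries and 1 log ratio, hippuristanol over untreated, both normalized and pooled by the authors. With no value per culture, the differences between treated and untreated cells could not be set against the spread of replicates, and there are no p-values. Values are in the authors' log units, whose base is unstated, and a log ratio is therefore not converted to a fold. The depth of each library is unknown. RNA-seq values were not analysed here, so more or less Ago2 per transcript and more or less of the transcript itself cannot be told apart. No peak was listed for 14 markers of other cell types (blood, liver, connective tissue, epithelium, glia and muscle). These markers were looked up among peaks of any class. Only 2213 genes had such a peak, against 19128 genes with an annotated 3′ UTR, so this absence says little about which cells were present.

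As background, let-7 is a family of microRNAs that accumulates as cells differentiate and represses genes of embryonic growth. A microRNA guides Argonaute to a transcript mainly through its seed, bases 2 to 8 from the 5′ end, which pairs with a matching stretch of the 3′ untranslated region (3′ UTR). LIN28B in turn binds let-7 precursors and blocks their maturation, so that LIN28B and let-7 hold each other down. The amount of let-7 itself was not among the values analysed here.

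The mature sequences below show that the family shares 1 seed, which is why its members are described as recognising the same sites. RefSeq (GRCh38.p14) holds 9 mature let-7 family sequences from 12 loci, and all 9 have the seed GAGGUAG. Capitals mark the seed, bases 2 to 8. For comparison, 5 of the 9 are given here.
let-7a-5p: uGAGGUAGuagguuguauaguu
let-7d-5p: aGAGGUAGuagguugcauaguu
let-7e-5p: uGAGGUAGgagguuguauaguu
let-7i-5p: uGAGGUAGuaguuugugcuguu
miR-98-5p: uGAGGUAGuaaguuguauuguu

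All 8 genes held the let-7 seed match in their 3′ UTR, and the 4 genes with an Ago2 peak held more of them than the 4 genes without a peak. The match searched was CTACCTC on the transcript strand, in the RefSeq-matched GENCODE 29 transcript of each gene with the longest 3′ UTR. An 8 nt match is the same with an A opposite base 1, CTACCTCA, and each is also counted as a 7 nt match. TRIM71 had 6 matches in a 3′ UTR of 6015 nt, LIN28B 4 in 4549 nt, HMGA2 4 in 3003 nt and IGF2BP1 4 in 6206 nt. HMGA1, IGF2BP2, IGF2BP3 and ARID3B had 1 match each, in 3′ UTRs of 1347, 1792, 2153 and 2357 nt. The genes with a peak thus also had the longer 3′ UTRs, and the part of length in the result was not tested. Per kb the count was 1.33 for HMGA2, 0.998 for TRIM71, 0.879 for LIN28B and 0.645 for IGF2BP1, against 0.742 for HMGA1, 0.558 for IGF2BP2, 0.465 for IGF2BP3 and 0.424 for ARID3B. Per length, IGF2BP1 lay below HMGA1, so the order by peak and the order by density differed there.

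Across the annotation a let-7 match was uncommon, and 4 or more were rare. Of 19128 genes with an annotated 3′ UTR, 8.82% held the 7 nt match, 3.34% the 8 nt match and 10 genes held 4 or more 7 nt matches. Of those 10 genes, 6 had an Ago2 peak in the 3′ UTR. They were TRIM71, LIN28B, HMGA2 and IGF2BP1 together with IGDCC3, a cell surface protein of the immunoglobulin superfamily, and SMC1A, a subunit of cohesin. Among all annotated genes, 7.98% had a 3′ UTR peak. With 0 matches the share was 7.52%, with 1 match 12.4%, with 2 matches 14.5%, and with 3 matches 1 gene of 20. The median 3′ UTR was 845 nt long with 0 matches and 5075 nt long with 4 or more, and 15.3% of the 3064 genes with a 3′ UTR of at least 3003 nt had a peak there.

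Sites of the 4 bound genes are printed here because they are where let-7 could pair with these transcripts. Each is 24 nt of the transcript, 5′ to 3′, with the seed match in capitals (8 letters where the A opposite base 1 is present), from GENCODE 29 on GRCh38, plus strand, in the last exon and the 3′ UTR. The first TRIM71 pair lies at chr3:32891967-32891990 and chr3:32892047-32892070, and the starts of the 2 matches are 80 nt apart. The HMGA2 sites are the first and the last of 4, at chr12:65963297-65963320 and chr12:65965797-65965820. The LIN28B sites are numbers 2 and 3 of 4, the closest pair of its matches, at chr6:105081238-105081261 and chr6:105081420-105081443. The IGF2BP1 site is the first of 4, at chr17:49051060-49051083.
TRIM71 site 1: caacattgcttaagtcCTACCTCA
TRIM71 site 2: aagtgataatttctatCTACCTCA
HMGA2 site 1: cgccaacgttcgatttCTACCTCA
HMGA2 site 4: caatcaaaacacactaCTACCTCt
LIN28B site 2: gtactgatgatagtaaCTACCTCt
LIN28B site 3: tgtttacagcaaaaggCTACCTCA
IGF2BP1 site 1: ctgtgtgcgaagtaaaCTACCTCA
Among the genes without a peak, IGF2BP2 and IGF2BP3 also held an 8 nt match. The only match of IGF2BP3 was an 8 nt one on the minus strand at chr7:23311795-23311818, and that of IGF2BP2 an 8 nt one, also on the minus strand, at chr3:185644220-185644243.
IGF2BP3 site 1: gtgcatttttactcaaCTACCTCA
IGF2BP2 site 1: aaacacacagaagaagCTACCTCA

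**Figure D1:**
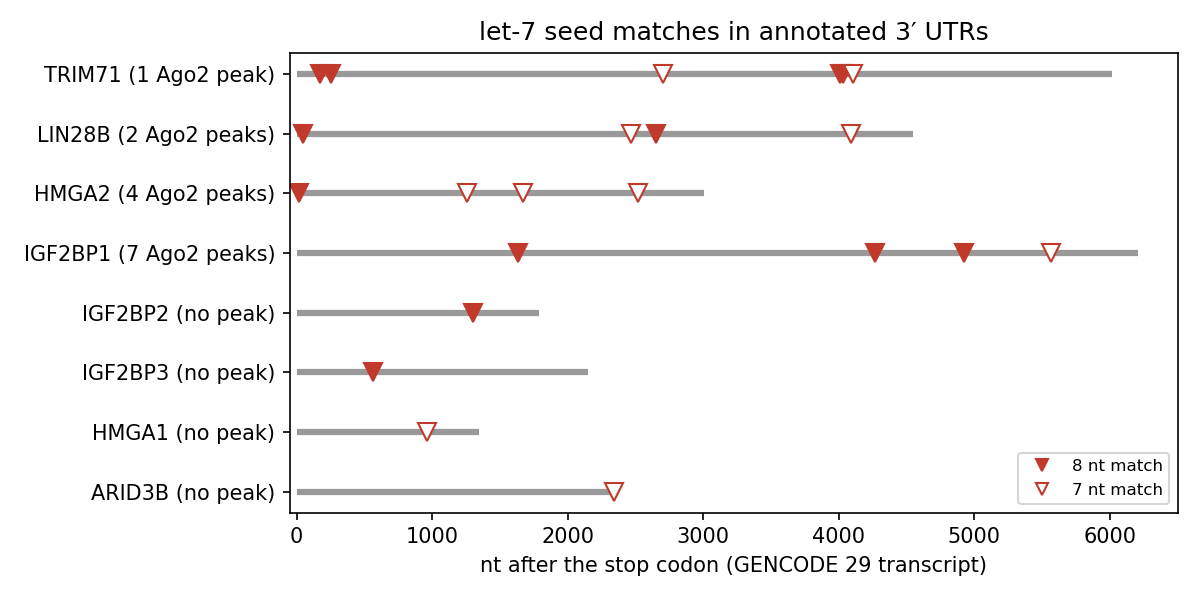
Position of let-7 seed matches in the annotated 3′ UTR of each gene, as nt after the stop codon; grey bars are the 3′ UTRs, filled triangles 8 nt matches and open triangles 7 nt matches. TRIM71 holds 6 matches, LIN28B, HMGA2 and IGF2BP1 hold 4 each, and the 4 genes without an Ago2 peak hold 1 each.

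The peak coordinates are hg19 and the sites are GRCh38, so which peak covers which match was not determined. Distances within a gene are given side by side instead. No log ratio of a peak is read here as that of a let-7 site. The single TRIM71 peak, 37 nt long, cannot cover all 6 of its matches, whose first and last start 3935 nt apart. All 14 peaks lay in 3′ UTRs, where 61.3% of all peaks lay. They were 23 to 92 nt long by end minus start, with a median of 35 nt against 39 nt for all peaks.

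Of the 14 peaks, 10 had a log ratio above 0, as had 59.1% of all peaks, and 9 lay above 0.17, the median gene value of the table, as did 49.1% of all peaks. None of the 14 passed a log ratio of 1, which 11.3% of all peaks did, and none lay below −1, where 4.22% did. Their median was 0.43, against 0.15 for all peaks. The value of a gene is the median of its peaks. By gene, 3 of the 4 lay above the median of all genes, where 50% of genes lie by construction, and the median of the 4 gene values was 0.39, against 0.17 for all genes. With means over peaks in place of medians, 2 of the 4 lay above the median of all genes, and the median of the 4 was 0.19, against 0.17. With the peak of highest log average standing for each gene, 2 of the 4 lay above it, and the median of the 4 was 0.13, against 0.18. With 4 genes, these counts describe the genes and do not set them apart from the table. From highest to lowest, the gene values were 0.65 for LIN28B, 0.46 for IGF2BP1, 0.32 for HMGA2 and −0.76 for TRIM71. The peaks of LIN28B, IGF2BP1 and HMGA2 overlapped in their log ratios. Without values per culture it cannot be said whether these 3 genes differed. TRIM71, with a single peak, lay below every peak of LIN28B and HMGA2 and above the lowest peak of IGF2BP1.

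**Figure D2:**
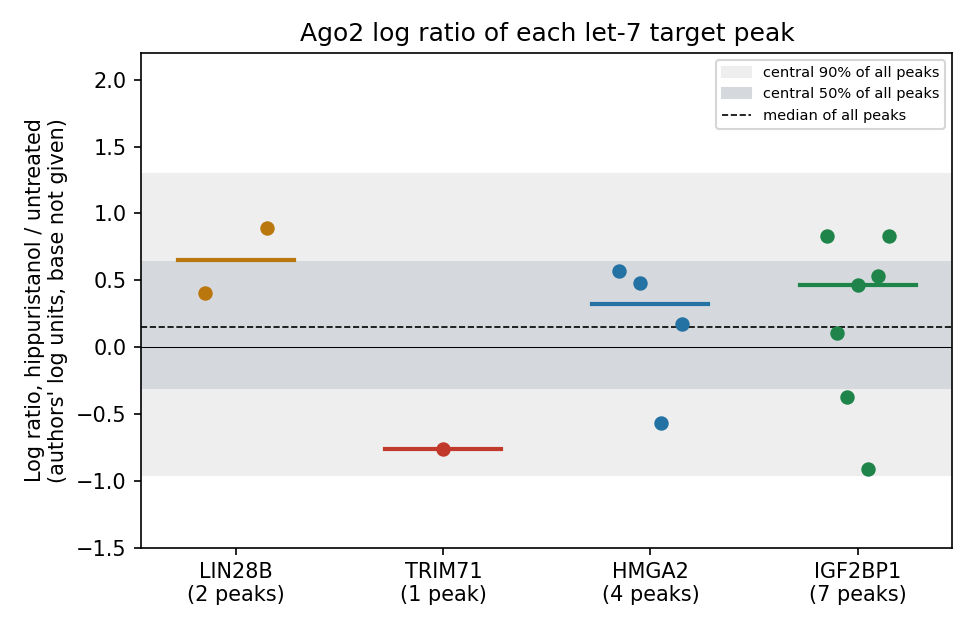
Log ratio of hippuristanol over untreated cells (authors' log units) for each of the 14 peaks; points are peaks, coloured bars the gene medians, and shading the central 50% and 90% of all 4718 peaks. The 14 points lie between −0.91 and 0.89, inside the central 90%, and the TRIM71 peak lies at −0.76.

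TRIM71 is a ubiquitin ligase and RNA-binding protein of early development, whose worm ortholog lin-41 is among the first known targets of let-7. It had the highest log average of the group and the lowest gene value. What the log average was normalized to is not stated, so it is not read here as the strength of binding. In the authors' deposited table its single peak, at chr3:32933695-32933732 (plus strand, hg19), had −1.54 as its log average and −0.76 as its log ratio. That log average ranked 37 of all 4718 peaks and 8 of the 2894 peaks in 3′ UTRs, whose median was −6.46. It exceeded the highest log average of any other member by 4.31 log units. Its log ratio stood above those of 8.56% of all peaks, and its gene value ranked 2050 of 2213. Among the 37 peaks with a log average at least as high, TRIM71 included, the median log ratio was 0.03, 17 were below 0 and 5 stood at its log ratio or lower.

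**Figure D3:**
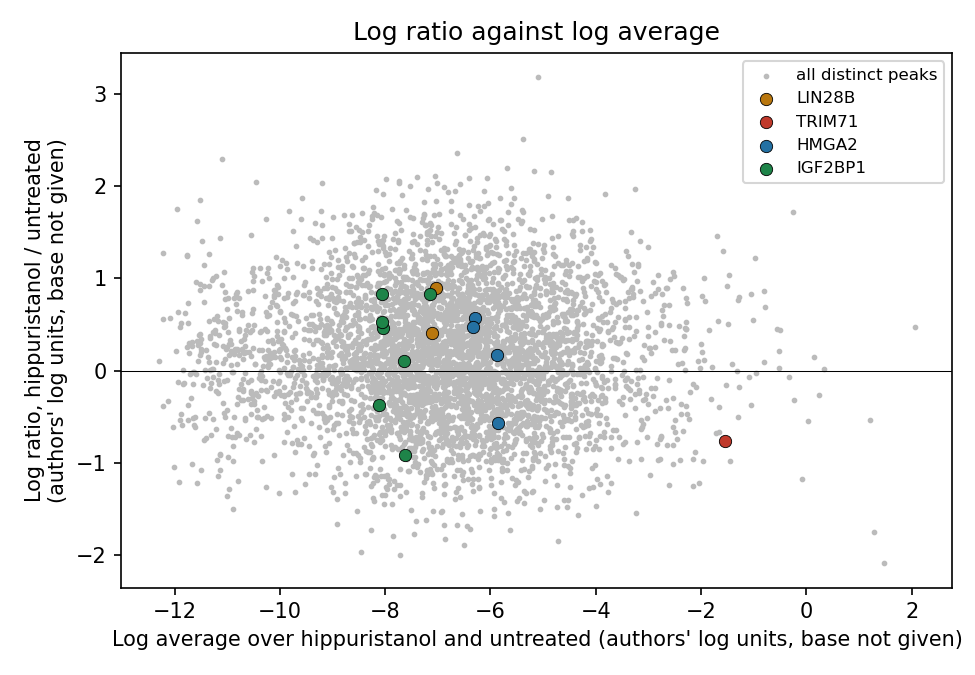
Log ratio of hippuristanol over untreated cells against the log average over both, in the authors' log units; grey points are all distinct peaks and coloured points the let-7 target peaks. TRIM71 stands apart at a log average of −1.54, while the other 13 member peaks lie between −8.11 and −5.85.

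LIN28B, the RNA-binding protein that blocks let-7 maturation, had the highest gene value, and both its peaks were above the median of all peaks. The authors' deposited table listed 0.40 as log ratio and −7.10 as log average for the first peak, at chr6:105529114-105529145 (plus strand, hg19). For the second, at chr6:105529282-105529326, the authors' deposited table listed 0.89 as log ratio and −7.03 as log average. The peaks did not overlap, and the second stood at percentile 85.6 of all peaks by log ratio. Their log averages were within 0.07 of each other. The starts of these peaks were 168 nt apart. In order, its 4 let-7 matches started 2427, 182 and 1439 nt apart, and matches 2 and 3 are printed above. Whether the peaks cover any of these matches was not determined. The gap between the 2 log ratios was 0.49, and 209 of the 393 genes with 2 peaks had a wider one. By gene value LIN28B ranked 480 of 2213.

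HMGA2, a chromatin architectural protein of fetal tissue and of many tumours, had 4 peaks in 2 pairs, 2264 nt apart, with log ratios of both signs. The upstream pair of peaks overlapped by 7 nt, so they share sequence and are not separate measurements. In the authors' deposited table the first, at chr12:66357272-66357305 (plus strand, hg19), had 0.57 as its log ratio, and the second, at chr12:66357298-66357324, had 0.48. Of the distal pair, the peak at chr12:66359588-66359611 had −0.57 and that at chr12:66359886-66359941 had 0.17 in the authors' deposited table. The upstream pair was thus higher than either distal peak, and the 2 distal peaks, 275 nt apart, differed from each other by more than the upstream pair did. The log averages of the 4 peaks ran from −6.33 to −5.85. The starts of the first and last peaks were 2614 nt apart, and those of the first and last let-7 matches 2500 nt. At those spacings the first and last peaks, 33 and 55 nt long, cannot each cover the match at their end, if both builds have the same length there. Whether any of the 4 peaks covers a match was otherwise not determined. The range of log ratios, 1.14, was exceeded in 41 of the 66 genes with 4 peaks. The gene value of HMGA2 depends on how its peaks are combined. It was 0.32 as a median, 0.16 as a mean, 0.17 with overlapping peaks merged, and −0.57 when the peak with the highest log average stood for the gene.

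IGF2BP1, an oncofetal RNA-binding protein that stabilises bound mRNAs such as MYC, had the most peaks and the widest spread of log ratios. Its 7 peaks spanned 5801 nt, and 3.80% of all genes had as many peaks or more. In order along the transcript, the authors' deposited table listed log ratios of 0.83, 0.11, −0.37, 0.46, −0.91, 0.53 and 0.83. The highest values were thus at both ends of the stretch, and the lowest was the fifth, between neighbours of 0.46 and 0.53. The fifth peak, at chr17:47131824-47131850 (plus strand, hg19), stood at percentile 5.77 of all peaks by log ratio, and the seventh, at chr17:47132724-47132797, at percentile 83.0. No peaks of this gene overlapped, and the gaps between neighbours were 327 to 1660 nt. The first peak began at 47126996 on chromosome 17. The table assigns these peaks to NM_001160423, while the let-7 matches come from NM_006546.3, the isoform of this gene with the longest annotated 3′ UTR. The starts of the 4 matches lay within 3936 nt and those of the peaks within 5728 nt, so the peaks covered a longer stretch than the matches. With 7 separate peaks and 4 matches, not every peak can cover a 7 nt match.

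The IGF2BP1 peaks had low log averages, which ran from −8.11 to −7.14, against a median of −6.76 for all peaks, and the median of the gene stood at percentile 9.67 of all genes. The 917 peaks of the table in that range of log average had a median log ratio of 0.18. The range of log ratios within IGF2BP1, 1.74, compares with a median of 1.37 over the 22 genes with 7 peaks, and 7 of those genes had a wider one. The gene value was 0.46 as a median and 0.21 as a mean. The SD over its peaks was 0.65, that of HMGA2 0.52 and that of LIN28B 0.35, and the median SD within the 750 genes with 2 or more peaks was 0.52.

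**Figure D4:**
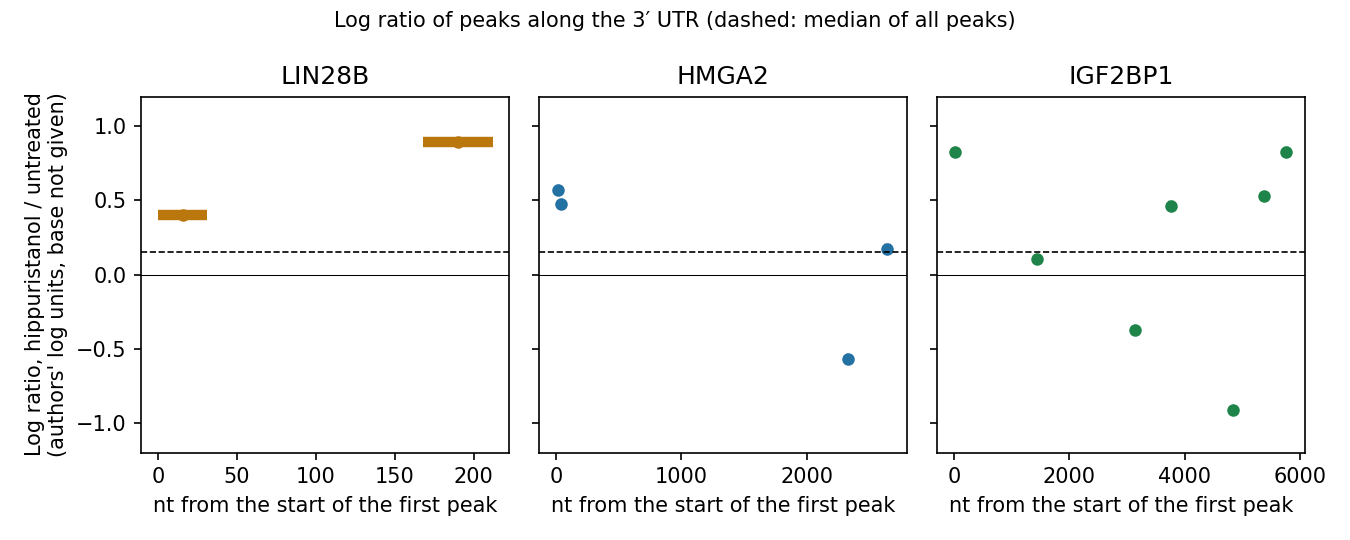
Log ratio of hippuristanol over untreated cells (authors' log units) of each peak against its distance from the start of the gene's first peak; bars span the peaks, points are their middles and the dashed line is the median of all peaks, 0.15. In HMGA2 and IGF2BP1 values of both signs lie on the same 3′ UTR, with lowest values of −0.57 and −0.91.

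HMGA1, a paralog of HMGA2, IGF2BP2 and IGF2BP3, paralogs of IGF2BP1, and ARID3B, an AT-rich DNA-binding protein, had no peak to compare. Whether these transcripts were absent, unbound or below the authors' peak threshold cannot be told from the table.

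Other genes of the let-7 pathway were described from lists, with 9.17% of all genes above a gene value of 1 and 3.43% below −1. Of 22 growth and cell cycle targets of let-7, 10 had a peak, and 6 of the 10 lay above the median of all genes. Their median was 0.37, against 0.17 for all genes. IRS2, an adaptor of insulin signalling, had a gene value of 0.49 from 1 peak, and the cyclin CCND2 one of 0.39 from 16 peaks. IGF2, a fetal growth factor, stood at 0.08, the transcription factor MYC at −0.05 and the cyclin CCND1 at −0.09.

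Of 22 further predicted let-7 targets, 10 had a peak, and 3 of the 10 lay above the median of all genes. Their median was −0.26, on the other side of 0 from the classical targets, and 1 passed 1. That gene, named after its value was seen, was CPEB4, at 1.40 from 1 peak. IGDCC3, with 4 let-7 matches, had 2 peaks and a gene value of −0.84, and its highest log average was −2.50. Like TRIM71 it thus had 4 or more matches, a high log average and a log ratio below 0. LIN28B, HMGA2 and IGF2BP1, with 4 matches each, had gene values above 0. Of the 37 peaks with a log average at least as high as that of TRIM71, 17 were below 0. SMC1A, also with 4 or more matches, had a gene value of 1.27 from 4 peaks. PRTG, a relative of IGDCC3 with 2 matches, had a gene value of −0.86. RGS16, a regulator of G-protein signalling, stood at −0.55, the DNA-binding protein ARID3A at −0.33 and the polyadenylation regulator CPEB2 at −0.20. CPEB3, of the same family as CPEB2 and without a 7 nt match, stood at 0.80.

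Over the 20 genes with a peak on these 2 lists, 12 held a 7 nt let-7 match and 8 did not. The 12 with a match had a median gene value of −0.15, and the 8 without had 0.48. Across the whole table the order was the other way, there with 3′ UTR peaks alone in place of all peaks of a gene. The 216 genes with a 3′ UTR peak and at least 1 match had a median 3′ UTR log ratio of 0.25, and the 1311 without a match had 0.14. The central 50% of values overlapped widely, from −0.12 to 0.62 with a match and from −0.29 to 0.57 without. None of these differences was tested.

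**Figure D5:**
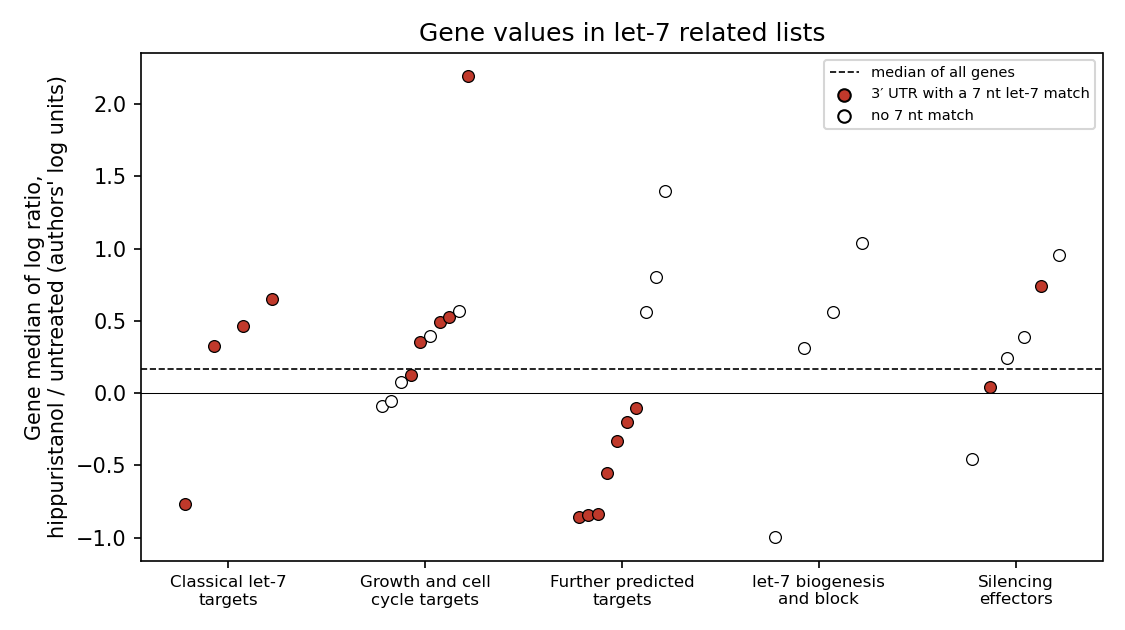
Gene median of the log ratio of hippuristanol over untreated cells (authors' log units) for genes with a peak in each let-7 related list; red points have a 7 nt let-7 match in the annotated 3′ UTR, white points have none, and the dashed line is the median of all genes, 0.17. The 3 genes above the line among the further predicted targets have no match, and the 7 below it have at least 1. DICER1 is drawn both there and in the biogenesis list.

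Of 14 symbols for let-7 biogenesis and its block, 4 had a peak, with a median of 0.44, and 3 lay above the median of all genes. DROSHA, which cuts primary microRNA transcripts in the nucleus, had 2 coding-sequence peaks, both listed at 1.04 in the authors' deposited table. DICER1, which cuts the precursor to the mature microRNA, had a gene value of 0.56 over 20 peaks, 10 of them in coding sequence. It is also among the further predicted let-7 targets that lay above the median of all genes, so these lists share a gene. DGCR8, the partner of DROSHA, stood at 0.31 and KHSRP, which promotes processing of let-7 precursors, at −0.998, each from 1 peak. LIN28A, the paralog of LIN28B, had no peak.

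Of 13 symbols for silencing effectors, which include older and newer names of the Argonaute genes, 6 had a peak, with a median of 0.32, and 4 lay above the median of all genes. TNRC6B, a scaffold that recruits deadenylases to Argonaute, stood at 0.96, its paralog TNRC6A at 0.39 over 13 peaks and TNRC6C at −0.45. EIF2C1, which encodes Ago1, stood at 0.74 over 5 peaks and held 1 let-7 match. EIF2C2, which encodes Ago2 itself, stood at 0.04 from 1 coding-sequence peak and held 2 let-7 matches. The helicase DDX6 stood at 0.25.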

How the data were processed

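Per the file header, the deposited values are scores that the authors normalized, with 1 log average and 1 log ratio (hippuristanol over untreated CLIP) for each Ago2 peak. Not given in the sources used here are the log base, how values were normalized or pooled, and the peak caller and its filters. TopHat, DESeq and Bowtie 0.12.8 are named with hg19, in no stated role, per the submitters' processing notes.

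Of 4768 peaks, those with identical values in 1 gene were counted once, which left 4718. Gene values are medians over peaks. The planned comparison per library could not be made on pooled values. Sites were searched in GENCODE 29 transcripts (GRCh38), matched for 99.3% of genes with a 3′ UTR peak. Coordinates of peaks are as the table gives them. Counting of peaks and sites was tested on simulated data. Python 3.11.15 and pandas 2.3.3 were used.

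Some genes were singled out by their number of let-7 matches, and CPEB4 by its value. The rule for the rest was to name all members, and the 6 genes of each other list with the highest log average. A gene that this rule names is not reported here. Members and lists were chosen with earlier results of these data known.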

Additional observations from a re-analysis of the deposited data

How the results depend on the processing

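No paired analysis was possible because the table holds 1 pooled value per peak and no value per culture, and for the same reason no replicate could be left out. Of 51 recomputed values, 46 kept their sign and moved by less than the SD over peaks or genes or, for counts, by no more than 1.5 times. A value that crossed the median of all genes without a change of sign was thus among the 46. They also include the median of all genes itself under other settings. Some of the 46 could not change. TRIM71 has a single peak, and all 14 member peaks lie in 3′ UTRs, with none listed in duplicate. Restricting to 3′ UTR peaks or counting every row thus left the members' gene values as they were. A fall from 3 members to 2 also lay within the 1.5 times. With the peak of highest log average standing for each gene, HMGA2 had −0.57, 2 members lay above the median of all genes, and the median of the members' gene values was 0.13, against 0.18 for all genes. With the peaks at or above the median log average alone, which leaves HMGA2 and TRIM71, 1 member lay above the median of all genes and the median of the members' gene values was −0.22. With means, 2 members lay above the median of all genes, and the members' median was 0.19, against 0.17. Leaving out each member in turn gave medians from 0.32 to 0.46. The 8 nt match was found 12 times in the 3′ UTRs of the members and the 6 nt match to bases 2 to 7 was found 36 times, against 22 for the 7 nt match. The read depth behind each peak is unknown.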

Other observations

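Over all members, which were chosen as let-7 targets, each of 5 other microRNA families had fewer seed matches in total than the 22 of let-7. Gene by gene this did not hold throughout, since HMGA1 had 2 matches of the miR-15 and miR-16 family and 1 of let-7, and IGF2BP2 and IGF2BP3 had as many of miR-10 and of miR-92 as of let-7. The 7 nt match of the miR-17 family, GCACTTT, was found 3 times in the 3′ UTR of IGF2BP1, 2 times in TRIM71 and 1 time in HMGA2, and 19.7% of all annotated 3′ UTRs held it. That of the miR-15 and miR-16 family, TGCTGCT, was found 5 times in 4 members, HMGA1, HMGA2, LIN28B and TRIM71, and 20.1% of 3′ UTRs held it. The matches of miR-19 (TTTGCAC), miR-92 (GTGCAAT) and miR-10 (ACAGGGT) were found 2, 3 and 3 times in the members, and 12.8%, 10.2% and 11.5% of 3′ UTRs held them. ARID3B held none of these 5 matches.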
